A study of Mus musculus with 4 samples.

Results

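The receptor genes for the cytokines that drive or restrain dendritic cell culture were followed across 4 RNA-seq libraries of mouse bone marrow-derived dendritic cells. The 10 genes, taken by symbol from the deposited tables, encode receptor chains for GM-CSF (Csf2ra and Csf2rb), M-CSF (Csf1r), IL-4 (Il4ra, Il13ra1 and Il2rg), IL-6 (Il6ra and Il6st) and IL-10 (Il10ra and Il10rb). All 10 had values in all 4 libraries, among 12507 genes with values in all 4 and 13685 listed in at least 1 table. Bone marrow of C57BL/6 mice aged 4 weeks was grown for 7 days with GM-CSF and IL-4, both at 10 ng/ml, so ligands of 2 of these receptors were present in every group. The cells then received Wnt2, CAF.CM first mixed with an antibody to Wnt2, CAF.CM alone, or control medium, where CAF.CM is the culture medium of CAFs, the usual abbreviation for cancer-associated fibroblasts. No source used here gives the treatment time or the Wnt2 dose. The series text speaks of triplicates, yet each group has 1 column of values, called a library below. The differences could therefore not be set against a spread between replicates, no test was run, and a gene was counted as higher or lower from a 2-fold difference.

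GM-CSF and IL-4 are the usual additions for turning bone marrow into dendritic cells, and M-CSF is the growth factor of macrophages. Except for the M-CSF receptor, which is a tyrosine kinase itself, these receptors are assembled from chains without enzyme activity that signal through bound JAK kinases and STAT factors. In each assembly 1 chain mostly decides which ligand is bound, and a partner chain is shared between several cytokines. IL-10 restrains antigen presentation and cytokine production by dendritic cells and macrophages, IL-6 acts in part through STAT3 as IL-10 does, and IL-4 acts mainly through STAT6.

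Most of the hematopoietin receptor family carries a short extracellular signature named WSXWS. The coding sequence of the longest protein-coding GENCODE M21 transcript held an in-frame match in 6 of the 10 genes. They are shown because they mark the family that ties the IL-4, IL-6 and shared beta chains together. Capitals mark the codons of the signature, with 15 bases on each side, 5′ to 3′ on the coding strand.
Csf2rb: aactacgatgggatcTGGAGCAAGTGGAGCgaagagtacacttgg
Il4ra: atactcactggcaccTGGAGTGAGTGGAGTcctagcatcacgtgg
Il13ra1: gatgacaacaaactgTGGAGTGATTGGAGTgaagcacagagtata
Il2rg: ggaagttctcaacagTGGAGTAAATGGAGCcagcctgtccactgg
Il6ra: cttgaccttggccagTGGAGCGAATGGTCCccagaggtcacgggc
Il6st: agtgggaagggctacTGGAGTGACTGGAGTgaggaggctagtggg
On build GRCm38 these stretches lie in exon 11 of Csf2rb (chr15:78345501-78345545, plus strand), exon 7 of Il4ra (chr7:125571539-125571583, plus), exon 8 of Il13ra1 (chrX:36149066-36149110, plus), exon 5 of Il2rg (chrX:101266200-101266244, minus), exon 6 of Il6ra (chr3:89885915-89885959, minus) and exon 8 of Il6st (chr13:112490582-112490626, plus). The search letters found no in-frame match in Csf2ra, in Il10ra and Il10rb, which belong to the interferon receptor family, or in Csf1r.

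The values are deposited CPM, which are read counts divided by each library's size as the authors scaled it. From the step between low values the reads behind them were recovered, 154399767 in listed genes for Wnt2, 22791494 for CAF.CM + antibody, 25225220 for CAF.CM and 143071376 for control medium. Intervals are 95% exact intervals on these reads and cover counting error only. Both CAF.CM libraries were the shallower ones, so that medium and depth cannot be told apart, and with all libraries thinned to 1 depth none of the 40 ratios of receptor genes changed sign. Protein-coding genes took 72.4% of reads with CAF.CM + antibody, 75.8% with CAF.CM and 80.1% with Wnt2, against 81.2% in control medium. Of 10 conventional dendritic cell markers 9 had values, and their summed level was 518 CPM with Wnt2, 681 with CAF.CM + antibody, 712 with CAF.CM and 1619 in control medium. Itgax, which encodes CD11c, carried most of that difference, at 223 CPM with Wnt2, 30.3 with CAF.CM + antibody, 47.7 with CAF.CM and 888 in control medium. H2-Ab1, a class II antigen presentation gene, was at 71.0 CPM with Wnt2, but at 521 with CAF.CM + antibody and 483 with CAF.CM, near the 489 CPM of control medium. Ccr7 (49.0 CPM with CAF.CM, 48.5 in control medium) and Zbtb46 (17.1 CPM with CAF.CM, 15.7 in control medium) were not lower with CAF.CM either. Other markers of this list were lower with CAF.CM than in control medium. They were Irf8 (94.5 against 145 CPM), Clec9a (8.26 against 16.5 CPM) and Batf3 (12.4 against 14.1 CPM). Flt3 and Xcr1 stayed at or below 1.17 CPM wherever they had values. The 10 macrophage markers summed to 19774 CPM with Wnt2, 6117 with CAF.CM + antibody, 8787 with CAF.CM and 27832 in control medium, most of it Lyz2. Neutrophil markers summed to 1538 CPM with Wnt2, 108 with CAF.CM + antibody, 157 with CAF.CM and 598 in control medium, for 4 of 9 with values, and most of that was Mmp8, while Ly6g and S100a9 had no value. Fibroblast markers summed to 65.0 CPM with CAF.CM + antibody and 37.8 with CAF.CM, against 14.2 with Wnt2 and 14.2 in control medium. Of 9 such markers 6 had a value in at least 1 library. Col5a1 carried most of the difference, at 49.1 CPM with CAF.CM + antibody, 23.6 with CAF.CM and 5.1 in control medium. Dcn was higher too, at 13.9, 10.7 and 0.509 CPM in the same libraries. Postn was lower with CAF.CM (0.691 CPM, against 4.51 CPM in control medium). Col1a2 and Col3a1 had no value in either CAF.CM library. None of 5 B cell markers had a value. In bulk RNA, fewer cells of a type and less RNA per cell cannot be told apart, and the part of these shifts in the results below was not tested.

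Per kilobase of exon, which is the scale on which genes can be set against each other, Csf1r and Csf2rb were the most abundant receptors in every library. Csf1r stood at 183 CPM per kb with Wnt2, 91.1 with CAF.CM + antibody, 133 with CAF.CM and 188 in control medium. Csf2rb followed at 147, 88.1, 112 and 134 CPM per kb in the same libraries. With the longest transcript as the length the order of these 2 genes was the other way round in both CAF.CM libraries. Il6ra was the least abundant of the 10 in every library, at 6.24 CPM per kb with Wnt2, 2.14 with CAF.CM + antibody, 3.35 with CAF.CM and 5.05 in control medium. The summed CPM of the 10 genes was 3016 with Wnt2, 1610 with CAF.CM + antibody, 2229 with CAF.CM and 2958 in control medium.

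**Figure D1:**
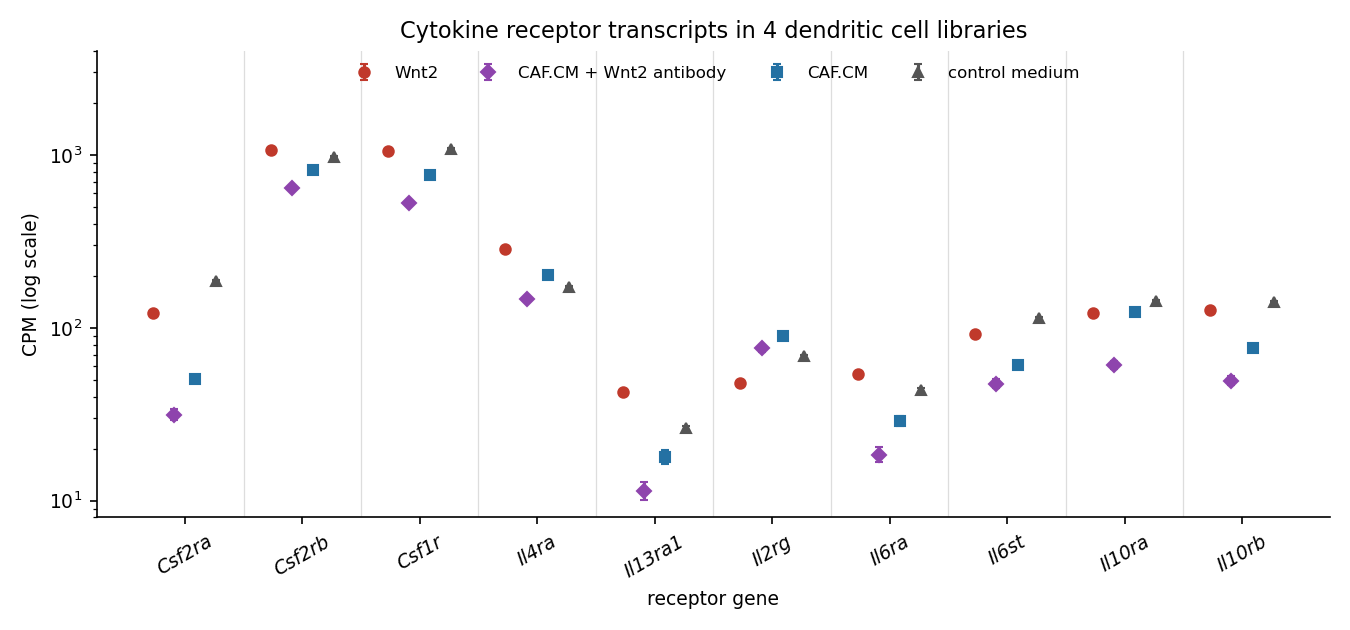
CPM (log axis) of the 10 receptor genes in each library, with bars for 95% exact Poisson intervals that are mostly smaller than the symbols. The CAF.CM + antibody library was the lowest of the 4 for every gene except Il2rg, and Csf2ra spanned the widest range, from 31.5 CPM with CAF.CM + antibody to 188 CPM in control medium.

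Csf2ra encodes the alpha chain that gives the GM-CSF receptor its specificity. It had 121 CPM with Wnt2, 31.5 with CAF.CM + antibody, 50.6 with CAF.CM and 188 in control medium. Control medium was the highest library, and both CAF.CM libraries lay far below the others. Csf2ra was 3.71-fold lower with CAF.CM than in control medium (log2 ratio -1.89, interval -1.97 to -1.81), and 5.96-fold lower with CAF.CM + antibody than in control medium (log2 ratio -2.58, interval -2.68 to -2.47). With Wnt2 it was 1.55-fold lower than in control medium (log2 ratio -0.63, interval -0.66 to -0.61). It was 1.61-fold lower with CAF.CM + antibody than with CAF.CM alone (log2 ratio -0.68, interval -0.82 to -0.55). The authors' deposited table gives Csf2ra an adjusted p of 0.0170 for Wnt2, 4.19e-17 for CAF.CM and 0.0268 for the antibody. The dispersion used for a single library per group is stated in no source used here. With 1 library per group the authors' p-values, here and below, cannot measure a spread between replicates. They are no evidence separate from the fold changes.

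Csf2ra, on the minus strand of chr19:61223957-61228429 (GRCm38), is transcribed from a promoter that is shown because this gene had the lowest ratio of the 10 in 3 of the 4 comparisons. The sequence covers 250 bases before to 50 bases after the RefSeq start (GRCm38.p6, chr19:61228369-61228668, minus strand).
Csf2ra promoter: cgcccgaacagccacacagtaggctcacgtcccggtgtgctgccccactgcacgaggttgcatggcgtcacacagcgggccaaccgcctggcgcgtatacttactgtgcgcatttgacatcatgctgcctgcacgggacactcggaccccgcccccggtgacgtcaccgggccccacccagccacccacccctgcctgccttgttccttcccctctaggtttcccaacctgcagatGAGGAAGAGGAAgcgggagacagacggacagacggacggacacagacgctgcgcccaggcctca
Capitals mark 2 adjoining copies of GAGGAA, the core bound by the myeloid factor PU.1, which was searched on both strands and occurs in 28.3% of 32851 RefSeq promoter windows of this length. Of the 6 receptor genes matched in that table (Csf2ra, Il4ra, Il13ra1, Il2rg, Il6ra and Il6st), Csf2ra and Il6ra held it, Il6ra with 1 copy. The STAT letters TTCNNNGAA, present in 8.30% of all windows, and the same letters with 1 more N, preferred by STAT6 and present in 6.95%, occurred in none of the 6, which says only that these letters are not in these windows.

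Csf2rb encodes the common beta chain that signals for GM-CSF, IL-3 and IL-5. It had 1069 CPM with Wnt2, 641 with CAF.CM + antibody, 814 with CAF.CM and 977 in control medium. Its 4 levels lay close together, with log2 ratios of 0.13 for Wnt2 and -0.26 for CAF.CM against control medium, -0.34 for CAF.CM + antibody against CAF.CM and -0.61 for CAF.CM + antibody against control medium. Of the 31-base words of its longest transcript 28% also occur in Csf2rb2, the mouse beta chain specific to IL-3, so reads could be split between both and these values are uncertain. Csf2rb2 itself had 143 CPM with Wnt2, 69.9 with CAF.CM + antibody, 82.5 with CAF.CM and 128 in control medium.

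Within a library the ratio of alpha to beta chain does not depend on library scaling, and the exon lengths enter it alike in all libraries. The per-kilobase ratio of Csf2ra to Csf2rb was 0.287 with Wnt2 (interval 0.283 to 0.291), 0.124 with CAF.CM + antibody (0.115 to 0.134), 0.158 with CAF.CM (0.149 to 0.167) and 0.487 in control medium (0.480 to 0.493). All 3 treated libraries thus held less alpha chain transcript per beta chain transcript than control medium. The words that Csf2rb shares with Csf2rb2 leave this ratio uncertain beyond its counting intervals. On the log2 scale the ratio differed from that of control medium by -0.76 in the Wnt2 library (interval -0.79 to -0.73), -1.63 in the CAF.CM library (-1.71 to -1.54) and -1.97 in the antibody library (-2.08 to -1.86). All 3 values refer to the same control library. Csf3r, the receptor for G-CSF, stood at 35.0 CPM with Wnt2, 5.95 with CAF.CM + antibody, 12.6 with CAF.CM and 48.6 in control medium.

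Csf1r, the receptor tyrosine kinase for M-CSF and IL-34, lies on the plus strand of chr18:61100598-61132149 (GRCm38). It had 1056 CPM with Wnt2, 526 with CAF.CM + antibody, 768 with CAF.CM and 1087 in control medium. The Wnt2 and control levels differed little (log2 ratio -0.04, interval -0.05 to -0.03). CAF.CM was 1.42-fold lower than control medium (log2 ratio -0.50, interval -0.52 to -0.48) and CAF.CM + antibody 2.07-fold lower (log2 ratio -1.05, interval -1.07 to -1.02), a value that was within 2-fold under 3 of 4 other library scalings (-0.84 to -0.99) and at -1.01 with total counts. Exons of Hmgxb3 on the other strand cover 15.1% of its exon bases. The library kit keeps strand, per the labels' protocols, but no source used here says whether counting used it. Hmgxb3 had 36.0 CPM with Wnt2, 30.9 with CAF.CM + antibody, 28.9 with CAF.CM and 29.6 in control medium.

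Il4ra encodes the chain that binds IL-4 in both forms of its receptor. It had 285 CPM with Wnt2, 147 with CAF.CM + antibody, 201 with CAF.CM and 172 in control medium. Wnt2 was the highest library and CAF.CM + antibody the lowest. Il4ra was 1.65-fold higher with Wnt2 than in control medium (log2 ratio 0.73, interval 0.70 to 0.75), and 1.17-fold higher with CAF.CM (log2 ratio 0.22, interval 0.18 to 0.26). With the antibody it was 1.37-fold lower than with CAF.CM alone (log2 ratio -0.45, interval -0.51 to -0.39). An antisense gene, Gm44876, covers 9.51% of its exon bases and had at most 1.34 CPM.

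Il13ra1 pairs with Il4ra in the receptor that takes IL-13 as well as IL-4. It had 42.6 CPM with Wnt2, 11.4 with CAF.CM + antibody, 17.9 with CAF.CM and 26.3 in control medium. It was 1.62-fold higher with Wnt2 than in control medium (log2 ratio 0.69, interval 0.64 to 0.75) and 1.47-fold lower with CAF.CM (log2 ratio -0.55, interval -0.70 to -0.41). CAF.CM + antibody was 2.30-fold lower than control medium (log2 ratio -1.20, interval -1.39 to -1.03), on 265 reads. In the authors' deposited table Il4ra and Il13ra1 have adjusted p-values of 0.00439 and 0.00777 for Wnt2, and they are the 2 receptor genes with an adjusted p below 0.05 that were higher with Wnt2.

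Il2rg encodes the common gamma chain, which pairs with Il4ra in the receptor for IL-4 alone and serves IL-2, IL-7, IL-9, IL-15 and IL-21 as well. It had 48.2 CPM with Wnt2, 76.4 with CAF.CM + antibody, 89.1 with CAF.CM and 68.2 in control medium. Both CAF.CM libraries were above control medium and Wnt2 was below it, an order that no other receptor gene of the 10 had. Its log2 ratio to control medium was -0.50 with Wnt2 (interval -0.55 to -0.46), 0.38 with CAF.CM (interval 0.32 to 0.45) and 0.16 with CAF.CM + antibody (interval 0.09 to 0.24). Gm20489, a gene model on the same strand, shares 42.7% of the words of its longest transcript, so its level is uncertain.

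The chains that partner Il4ra thus stood on different sides of control medium. The per-kilobase ratio of Il4ra to Il2rg was 2.35 with Wnt2 (interval 2.30 to 2.41), 0.766 with CAF.CM + antibody (0.723 to 0.812), 0.897 with CAF.CM (0.854 to 0.943) and 1.00 in control medium (0.982 to 1.03). With Wnt2 this ratio was 2.34-fold that of control medium. The words that Il2rg shares with Gm20489 leave it uncertain beyond these counting intervals. The ratio of Il4ra to Il13ra1 was 4.14 with Wnt2 (4.03 to 4.25) and 4.05 in control medium (3.91 to 4.19), and their intervals overlap. It was 7.97 with CAF.CM + antibody (7.03 to 9.06) and 6.93 with CAF.CM (6.31 to 7.64), both above control medium.

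**Figure D2:**
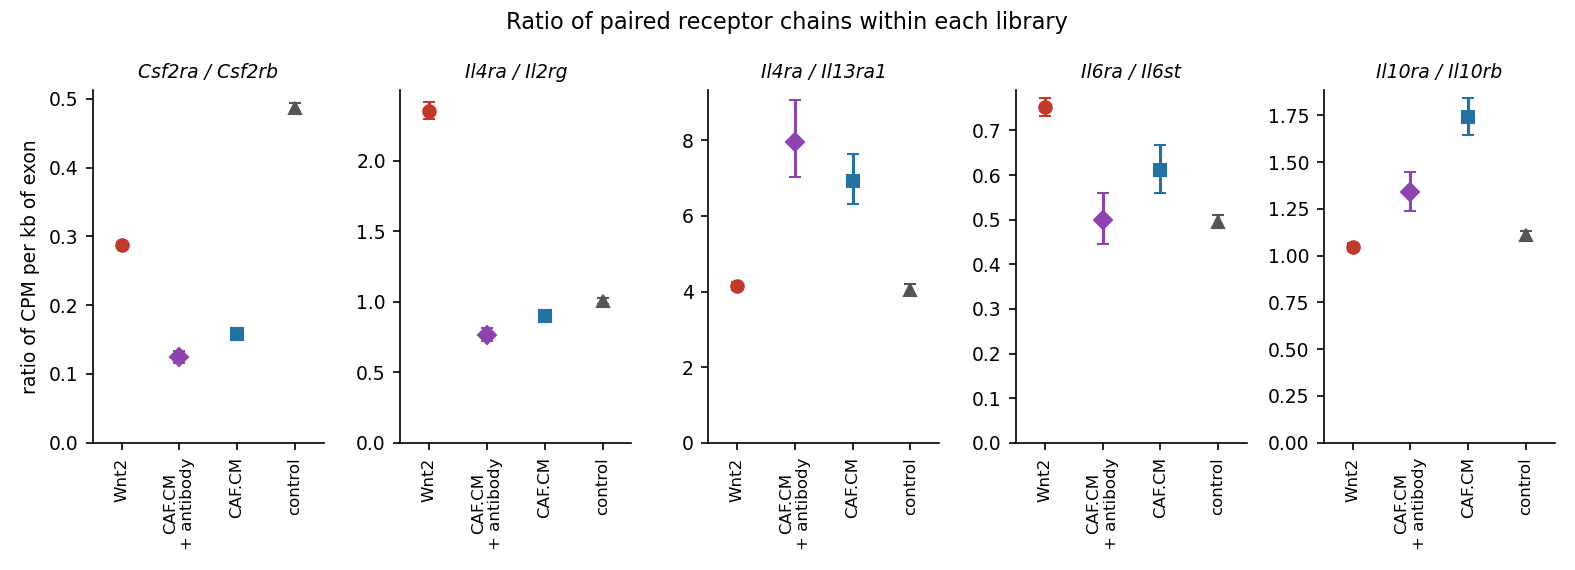
Ratio of CPM per kb of exon between paired receptor chains within each library, on linear axes from 0, with 95% exact binomial intervals. The Csf2ra to Csf2rb ratio was highest in control medium at 0.487, and the Il4ra to Il2rg ratio was highest with Wnt2 at 2.35.

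Il6ra encodes the chain that binds IL-6. It had 53.9 CPM with Wnt2, 18.5 with CAF.CM + antibody, 28.9 with CAF.CM and 43.7 in control medium. It was 1.24-fold higher with Wnt2 than in control medium (log2 ratio 0.30, interval 0.26 to 0.35), 1.51-fold lower with CAF.CM (log2 ratio -0.59, interval -0.71 to -0.49) and 2.36-fold lower with CAF.CM + antibody (log2 ratio -1.24, interval -1.38 to -1.10). Il6st encodes gp130, the signalling chain that IL-6 shares with LIF, oncostatin M and others. It had 92.1 CPM with Wnt2, 47.5 with CAF.CM + antibody, 60.8 with CAF.CM and 113 in control medium. Control medium was its highest library, and the 3 treated libraries were lower, with a log2 ratio of -0.30 (Wnt2), -0.90 (CAF.CM) and -1.25 (CAF.CM + antibody). The per-kilobase ratio of Il6ra to Il6st was 0.752 with Wnt2 (0.732 to 0.773), 0.50 with CAF.CM + antibody (0.446 to 0.559), 0.611 with CAF.CM (0.560 to 0.667) and 0.495 in control medium (0.481 to 0.510). It was highest with Wnt2, and the intervals of CAF.CM + antibody and control medium overlap.

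Il10ra (chr9:45253837-45269149, minus strand, GRCm38) encodes the chain that binds IL-10. It had 122 CPM with Wnt2, 60.8 with CAF.CM + antibody, 123 with CAF.CM and 143 in control medium. CAF.CM + antibody stood apart from the other 3 libraries, which lay within 1.17-fold of each other. Il10ra was 2.02-fold lower with CAF.CM + antibody than with CAF.CM alone (log2 ratio -1.01, interval -1.10 to -0.92). This passes 2-fold narrowly, its interval does not, and of 4 other library scalings 3 put it at -0.97 to -0.98 and total counts at -1.03. The authors' deposited table gives it an adjusted p of 1.00e-04. Il10rb (chr16:91406164-91425834, plus strand) encodes the partner chain, which also serves IL-22 and the lambda interferons. It had 126 CPM with Wnt2, 49.5 with CAF.CM + antibody, 76.7 with CAF.CM and 140.1 in control medium. It was 1.83-fold lower with CAF.CM than in control medium (log2 ratio -0.87, interval -0.94 to -0.80), and 2.83-fold lower with CAF.CM + antibody (log2 ratio -1.50, interval -1.59 to -1.42). Gm21970 shares 19.8% of the words of its longest transcript, so part of its reads is uncertain. The per-kilobase ratio of Il10ra to Il10rb was 1.05 with Wnt2 (1.03 to 1.07), 1.34 with CAF.CM + antibody (1.24 to 1.45), 1.74 with CAF.CM (1.65 to 1.84) and 1.11 in control medium (1.09 to 1.13). CAF.CM alone had the highest ratio.

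Counted over the 10 genes, none passed 2-fold with Wnt2 against control medium in either direction, where 2.87% of 13120 listed genes were higher and 2.93% lower. Of the 10 genes 6 had a ratio below 0, as had 53% of all genes, and their median log2 ratio was -0.10, against -0.02 for all genes. The authors' deposited table has 2 of the 10 higher and 1 lower at an adjusted p below 0.05, where 7.36% and 8% of all genes were. With CAF.CM against control medium 1 of the 10 was lower by 2-fold (8.69% of 13329 genes) and 0 were higher (6.68%). In that comparison 8 of the 10 had a ratio below 0, as had 53.3% of all genes, and the median was -0.53, against -0.04 for all genes. At an adjusted p below 0.05 the authors' deposited table has 6 of the 10 lower and 0 higher, where 18.8% and 13.9% of all genes were.

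With CAF.CM + antibody against CAF.CM alone all 10 receptor genes had a ratio below 0, as had 54.8% of 13072 genes. The ratios ran from -1.01 for Il10ra to -0.22 for Il2rg, with a median of -0.59, against -0.04 for all genes. Of the 10 only Il10ra was lower by 2-fold, where 3.65% of all genes were, and 0 were higher (1.02%). The authors' deposited table has 3 of the 10, Il10ra, Csf2ra and Il10rb, lower at an adjusted p below 0.05, where 5.55% of all genes were. Ratios below 0 were thus seen for Il4ra and Il2rg, which stood above control medium with CAF.CM alone, as well as for the other 8, which stood below it. With CAF.CM + antibody against control medium 7 of the 10 were lower by 2-fold, where 12.6% of 12882 genes were, and 0 were higher (8.1%). The 7 were Csf2ra, Il10rb, Il6st, Il6ra, Il10ra, Il13ra1 and Csf1r. Of the 10 genes 9 had a ratio below 0, as had 53.6% of all genes, and the median was -1.22, against -0.06 for all genes. The count was 6 with DESeq2 size factors and with TMM factors, without Csf1r (-0.986 and -0.99), and 5 when each library was scaled by its protein-coding reads, without Csf1r (-0.84) and Il13ra1 (-0.997). From 1.5-fold, 2 of the 10 were higher with Wnt2 (7.38% of all genes) and 1 lower (8%), and 0 were higher with CAF.CM (13.8%) and 4 lower (17.9%). At that threshold 0 were higher (4.4%) and 5 lower (10.7%) with CAF.CM + antibody against CAF.CM, and 0 were higher (17.4%) and 8 lower (23.9%) against control medium. The comparisons against control medium share that library, and those with CAF.CM alone share the CAF.CM library.

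**Figure D3:**
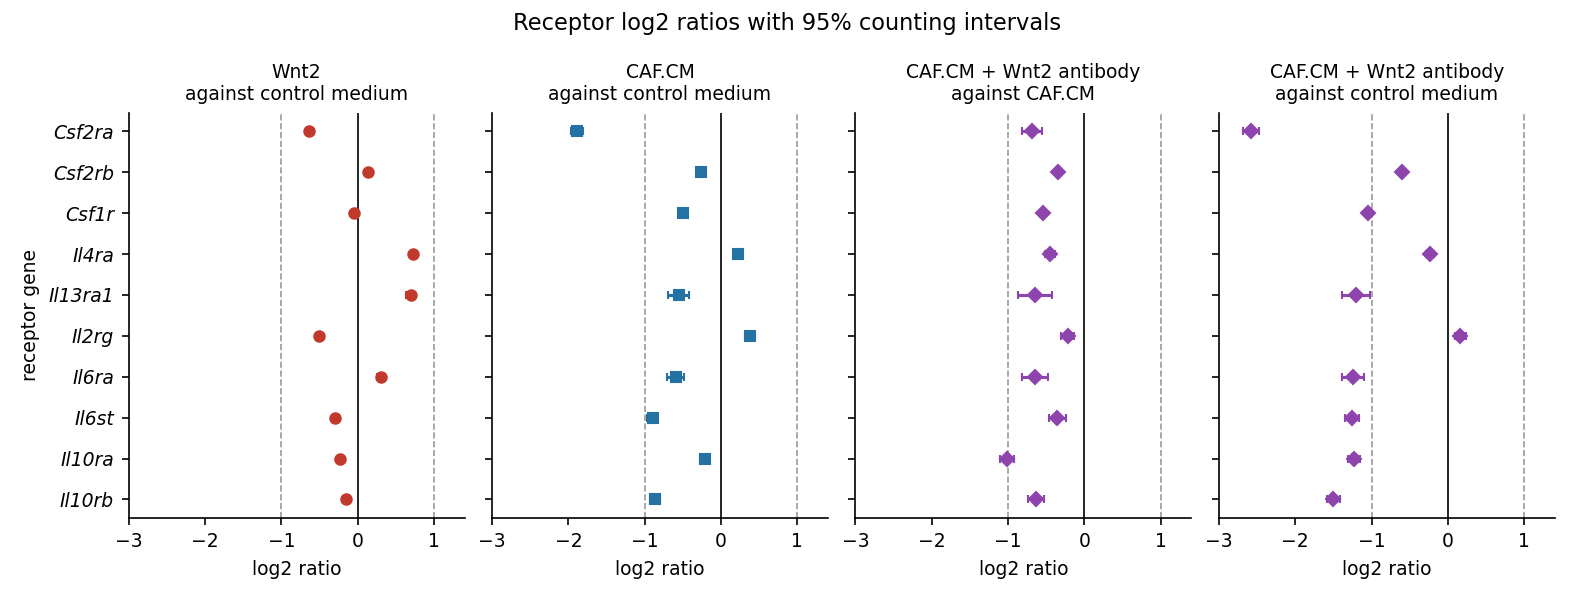
Log2 ratios of the 10 receptor genes in the 4 comparisons, with 95% exact binomial counting intervals and dashed lines at 2-fold. With Wnt2 all 10 lie within 2-fold, and with CAF.CM + antibody against CAF.CM all 10 lie left of 0.

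**Figure D4:**
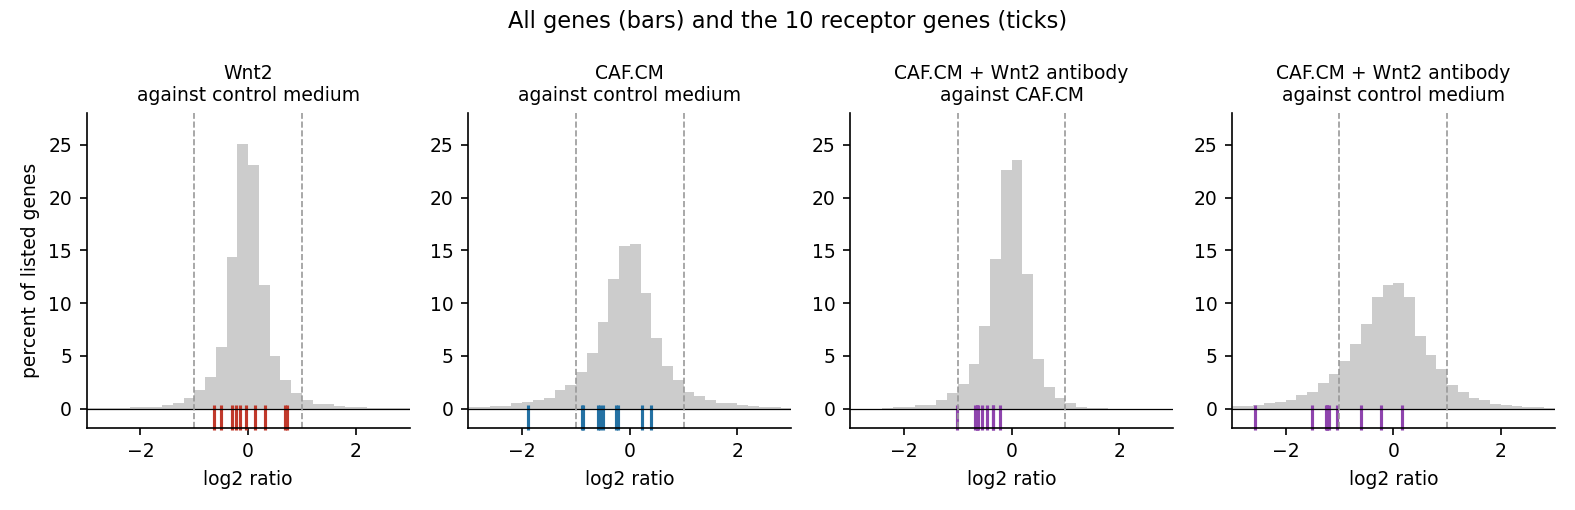
Distribution of log2 ratios over all listed genes in bins of 0.2 (bars, percent of genes, shown from -3 to 3) with the 10 receptor genes as ticks, for each comparison. In the antibody comparison the ticks run from -1.01 to -0.22, against a median of -0.04 for all genes.

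Other chains of these receptor families and the growth factor receptors Kit and Flt3, a list of 34 in all, differed in both directions. With Wnt2 0 of 21 with values were 2-fold higher and 4 lower. Among those named were Il27ra, a gp130 partner in the IL-27 receptor (log2 ratio -2.34, with 2.06 CPM against 10.48 CPM in control medium), Il11ra1 (-1.15), which binds IL-11 and signals through gp130, and Crlf2 (-1.08), the TSLP receptor chain. Ifngr1, the ligand-binding chain for interferon gamma, was at 456 CPM with Wnt2, against 244 CPM in control medium (log2 ratio 0.90). Relative to the same control library 6 of 21 passed 2-fold upwards with CAF.CM and 6 downwards, with Il15ra at 1.91, Il11ra1 at -2.27 and Csf3r at -1.95. With CAF.CM + antibody against CAF.CM 0 of 19 were higher and 5 lower, among them Il21r (-1.10), which signals with the common gamma chain, and Csf3r (-1.07), and the median was -0.35. Il20rb was at 0.64.

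Of 20 ligands of these receptors 8 had values in each comparison, but not the same 8. Cntf had values only with Wnt2 and in control medium, and Il27 in all libraries but Wnt2. Against control medium 2 of 8 were 2-fold higher with Wnt2 and 4 of 8 in the CAF.CM library. Between CAF.CM + antibody and CAF.CM 0 of 8 passed 2-fold, and 0 were lower by 2-fold in any comparison. Oncostatin M (Osm), which signals through gp130, had 28.4 CPM with Wnt2, 37.8 with CAF.CM + antibody, 25.2 with CAF.CM and 6.77 in control medium. Il6 had 2.49 CPM with Wnt2, 25.5 with CAF.CM + antibody, 22.7 with CAF.CM and 1.72 in control medium. It was thus high in both CAF.CM libraries, where Il6ra and Il6st were at their lowest. Lif, another gp130 ligand, had 3.70 CPM with Wnt2, 6.94 with CAF.CM + antibody, 4.15 with CAF.CM and 0.735 in control medium. Il15, which uses the common gamma chain, was higher with CAF.CM than in control medium (log2 ratio 1.29). Csf1, which encodes M-CSF, stood at 33.3 CPM with Wnt2, 25.8 with CAF.CM + antibody, 26.6 with CAF.CM and 29.9 in control medium. Csf2, Il4 and Il10 had no values in the tables used here.

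Downstream of the receptors, 0 of 11 JAK and STAT genes passed 2-fold with Wnt2. With CAF.CM 3 were higher, among them Stat4 (1.87) and Jak2 (1.47), a kinase bound by the GM-CSF receptor. Between CAF.CM + antibody and CAF.CM 2 were lower in the antibody library, among them Stat2 (-1.17). Stat6, the factor of the IL-4 receptor, had 209 CPM with Wnt2, 92.7 with CAF.CM + antibody, 131 with CAF.CM and 196 in control medium. Its log2 ratio for CAF.CM + antibody against control medium was -1.08. Of 15 feedback genes Socs3 passed 2-fold with Wnt2 (1.54). In the CAF.CM library 3 lay above control medium by 2-fold and 1 below, where Socs3, a brake on gp130 signalling, was at 2.78, Socs1 was at 2.46, Cish, induced by STAT5, at 1.94 and Socs6 at -1.17.

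Genes known to respond to each pathway were counted next. Of 14 STAT6-responsive genes with values, 0 were higher and 3 lower with Wnt2, which were Retnla (-1.99), Matk (-1.65) and Egr2 (-1.53). Within 2-fold, Arg1 was higher (0.90), at 10252 CPM against 5479 CPM in control medium, as were Tgm2 (0.59) and Chil3 (0.46). Mgl2 (-0.50) and Mrc1 (-0.41) were lower within 2-fold, and the median of the 14 with Wnt2 was -0.07. Il4ra had its highest level in that library. With CAF.CM 5 were higher and 4 lower, with Chil3 at 1.81 and the mannose receptor gene Mrc1 at -3.11. With CAF.CM + antibody against CAF.CM 0 were higher and 1 lower, Matk (0.646 CPM, against 3.11 CPM with CAF.CM alone). Mrc1 was lower within 2-fold (-0.78). Of 14 STAT3-responsive genes 4 were higher and 1 lower with Wnt2, where Il1rn, the IL-1 receptor antagonist, was at 1.53 and Saa3 at -1.25. With CAF.CM 7 were higher and 0 lower, and Saa3 was at 3.06. With CAF.CM + antibody against CAF.CM 1 of 14 was lower, Socs3 (-1.05), and Ddit4 was at 0.54. The CAF.CM library had 5 of 10 STAT5-responsive genes above control medium by 2-fold and 2 below, among them Cish, Osm and Ccnd2 (1.65) on the higher side and Bcl2l1 (-1.29) on the lower, while 1 was higher with Wnt2 (Osm) and 0 passed 2-fold between CAF.CM + antibody and CAF.CM. These lists rest on textbook responses and do not measure receptor signalling. Some genes are counted in 2 lists, among them Socs3, Cish, Osm and Pim1. As background to every list count, 2.87% of all genes were 2-fold higher and 2.93% lower with Wnt2, and 6.68% and 8.69% with CAF.CM. With CAF.CM + antibody the shares were 1.02% and 3.65% against CAF.CM, and 8.1% and 12.6% against control medium.

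Among 10 myeloid transcription factors known to act on receptor genes such as Csf1r, 0 passed 2-fold with Wnt2, where Cebpa was at -0.77. With CAF.CM 1 was higher and 4 lower, the lower ones including Cebpa (-1.39), Klf4 (-1.22) and Fli1 (-1.08). With CAF.CM + antibody against control medium 6 were lower, with a median over the 10 of -1.28. Against CAF.CM alone 1 was lower and 0 were higher. Spi1, which encodes PU.1, had 122 CPM with Wnt2, 54.6 with CAF.CM + antibody, 80.2 with CAF.CM and 139 in control medium. Its log2 ratio was -0.55 for CAF.CM + antibody against CAF.CM, and CAF.CM alone was already below control medium. Adam17, a protease that sheds the M-CSF and IL-6 receptors, had 175 CPM with Wnt2, 139 with CAF.CM + antibody, 191 with CAF.CM and 269 in control medium, and Adam10 had 185, 104, 143 and 183 CPM in the same libraries. Of the 4 genes with values on the list of shedding proteases and their partners, 0 passed 2-fold with Wnt2. In the CAF.CM library 1 was lower, Timp3, which encodes an inhibitor rather than a protease. It had 0.883 CPM there, against 2.04 CPM in control medium. Adam17, Adam10 and Rhbdf2 were within 2-fold with CAF.CM, and 0 of 3 passed 2-fold between CAF.CM + antibody and CAF.CM.

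Genes with the most similar levels over the 4 libraries were sought among 11011 other protein-coding genes, by distance between centred log2 values. With only 4 libraries such likeness is a weak description. Csf2ra lay closest to Selenop (distance 0.09), Lyz2 (0.10) and As3mt (0.12). Lyz2, a lysozyme gene of macrophages and other myeloid cells, had 18050 CPM with Wnt2, 4425 with CAF.CM + antibody, 6907 with CAF.CM and 25764 in control medium. Csf1r lay closest to Nlrx1, Ctbp1 and Rexo2, Il10ra to Nr3c2, Zfp14 and Mfsd4b4, and Il10rb to C2cd2, Ick and Sgk1. Il6st lay closest to Prep, Rufy3 and Slc36a1, Il6ra to Chsy1, Ttc32 and Nfe2, and Il13ra1 to Vav3, Idh1 and Picalm.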

How the data were processed

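The submitters' processing notes list mm10 and GRCm38.p5 as builds, and edgeR, RSEM (1.2.29) and STAR (2.4.2a) as tools, without settings or strand use. Ribosomal RNA was depleted and stranded libraries were made from 1 ug RNA, per the labels' protocols. The authors deposited CPM with 3 decimals, log2 fold changes and log2 mean CPM, and p-values and adjusted p-values, per the file headers. Tables list genes reaching about 1 CPM in 1 of 2 libraries. Shared libraries held identical values (12954 of 12954 genes for control medium, 12848 of 12848 for CAF.CM), so levels were set across tables.

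The design allowed 1 library per group, so no test was run. Reads were recovered from CPM, where 1 read was worth 0.00651 CPM (Wnt2), 0.0431 (CAF.CM + antibody), 0.0384 (CAF.CM) and 0.00706 (control medium), and 100% of values were whole within 0.1 step. Log2 ratios used edgeR 4.0.16 in R 4.3.3 with a prior count of 2, the authors' scaling and no filter, and a gene counted as higher or lower from 2-fold. The code was tested on simulated data. Exon length is the union of GENCODE M21 exons, and promoters come from RefSeq (GRCm38.p6). Shared words are 31-base words. Alternatives included DESeq2 1.42.0 size factors. Python 3.11.15 with scipy 1.17.1, numpy 2.4.6, pandas 2.3.3 and matplotlib 3.10.9 did the rest.

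Members and lists were chosen with earlier results of these data known. Besides the 10 genes, up to 4 genes per list and comparison with the highest absolute ratio were eligible to be named (at least 200 reads over both libraries and 5 CPM in 1), and for each receptor gene past 2-fold the 3 of most similar pattern. Where Csf2rb2, Hmgxb3, Gm44876, Gm20489, Gm21970, Csf2, Il4, Il10, Flt3, Xcr1, Mmp8, Ly6g, S100a9, Lyz2, H2-Ab1, Ccr7, Zbtb46 and Itgax are named outside that rule, that choice came after seeing values. The same holds for the other cell type marker genes named singly, for Timp3, Cntf and Il27, and for Arg1, Tgm2, Chil3, Mgl2 and Mrc1 with Wnt2. It also holds for Matk with CAF.CM + antibody against CAF.CM. A symbol with 2 identifiers is represented by the one with more reads. Some list genes are counted but not reported singly here.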

Additional observations from a re-analysis of the deposited data

How the results depend on the processing

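No paired analysis was possible because each group has 1 library and the labels give no replicate numbers, and for the same reason no library could be left out. Over 40 ratios of receptor genes none changed sign under prior counts of 0.5 and 5, DESeq2 size factors, total counts, TMM factors, scaling by protein-coding reads, thinning to the shallowest library or, for the 3 deposited comparisons, the authors' deposited log2 fold changes. Of the 310 values so obtained 250 stayed within the counting interval. Scaling by protein-coding reads moved the median of all genes to 0.12 for CAF.CM and 0.15 for CAF.CM + antibody against control medium, and the receptor genes by 0.16 and 0.21. With a 1.5-fold threshold 2 receptor genes were higher and 1 lower with Wnt2, 4 lower with CAF.CM, 5 lower with CAF.CM + antibody against CAF.CM and 8 lower with CAF.CM + antibody against control medium. In the same order 8%, 17.9%, 10.7% and 23.9% of all genes were lower and 7.38% were higher with Wnt2. Between CAF.CM + antibody and CAF.CM 0 were lower by 2-fold with DESeq2 size factors, with TMM factors and with protein-coding scaling, since Il10ra lay just short of the threshold, and 1 with total counts. Against control medium these settings gave 6, 6 and 5 lower, and 7 with total counts. A minimum of 100 reads removed none of the 10. The 2 CAF.CM libraries are the shallowest, and Il13ra1 there rests on 265 and 467 reads.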
